A study of Mus musculus with 6 samples.

Results

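The genes examined here were the ligands of the epidermal growth factor (EGF) family and the ERBB receptors that bind them. They were 6 ligand genes (Nrg1, Areg, Ereg, Hbegf, Tgfa and Btc) and 4 receptor genes (Egfr, Erbb2, Erbb3 and Erbb4), chosen by name from the 57010 genes of the count table. The libraries came from primary neonatal mouse cardiomyocytes (NMCMs), isolated from newborn C57BL/6 hearts and freed of fibroblasts by differential adhesion only. All cells were kept under hypoxia (HO), and 3 libraries received vehicle (HO + Vehicle, V1 to V3) and 3 received β-sitosterol, a plant sterol (HO + β-SITO, T4 to T6). The dose and the time for these libraries are not given in the sources used here, and no normoxic library was used. Nothing in the labels says that the libraries of a group came from separate cultures, so p-values measure only the spread between these libraries.

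EGF family ligands are made as membrane-anchored precursors and are cut free by surface proteases, chiefly ADAM17. A ligand joins receptors into pairs, which then activate the RAS-ERK and PI3K-AKT cascades. EGFR binds TGF-α, amphiregulin, HB-EGF, betacellulin and epiregulin, and ERBB4 binds neuregulins and also HB-EGF, betacellulin and epiregulin. ERBB3 binds neuregulins but has little kinase activity of its own, and ERBB2 has no known ligand and acts as the partner of the others. In the heart, neuregulin-1 from endothelial cells acts on ERBB4 and ERBB2 of cardiomyocytes and is known for its role in trabeculation and in cardiomyocyte growth and survival.

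The libraries held 16694734 to 18460522 counts. Expression is given as CPM, counts scaled to the library total after adjustment by the TMM method of edgeR, and differences as log2 fold changes of HO + β-SITO against HO + Vehicle. Differences were tested by quasi-likelihood in edgeR on 14799 genes, with Benjamini-Hochberg adjustment over all of them. A gene with an adjusted p under 0.05 is said to rise or fall, and one that also changed by more than 2-fold is called a DEG. T4 was the most distant of the HO + β-SITO libraries. The chi-square per degree of freedom over the tested genes was 8.58 between T4 and T5 and 9.10 between T4 and T6, against 1.95 between T5 and T6, and 4.62 to 7.37 between libraries of the HO + Vehicle group. The cardiomyocyte label was checked on 12 markers, and none was at 0 in any library. Their summed CPM was 6315 to 7358 in the HO + Vehicle group, 5353 in T4, 8682 in T5 and 8745 in T6. In reads, not scaled for gene length, 10 fibroblast markers took more, with 38530 to 41113 CPM in the HO + Vehicle group and 54475 to 56050 CPM in T4 to T6. The cultures therefore also held transcripts of other cell types. In such mixed libraries, fewer cells of a type and less RNA per cell cannot be told apart.

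Of the 10 genes, 9 passed the filter on low counts, and Areg did not. Among the 9, Btc, Ereg and Egfr were DEGs with lower expression under β-SITO, and Nrg1 was a DEG with higher expression. Of all tested genes, 10.1% were lower and 12.8% higher DEGs, and 22.8% were DEGs in all. Tgfa and Erbb2 fell by less than 2-fold, which made 5 members lower and 1 higher at an adjusted p under 0.05, 6 of 9 in all. Of all tested genes, 66.8% passed at this level, 33.8% lower and 33.0% higher. No overlap between the groups was seen for 6 of the 9, and for 70.5% of all tested genes. The median log2 fold change was -0.19 over the 9 members and -0.01 over all tested genes.

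**Figure D1:**
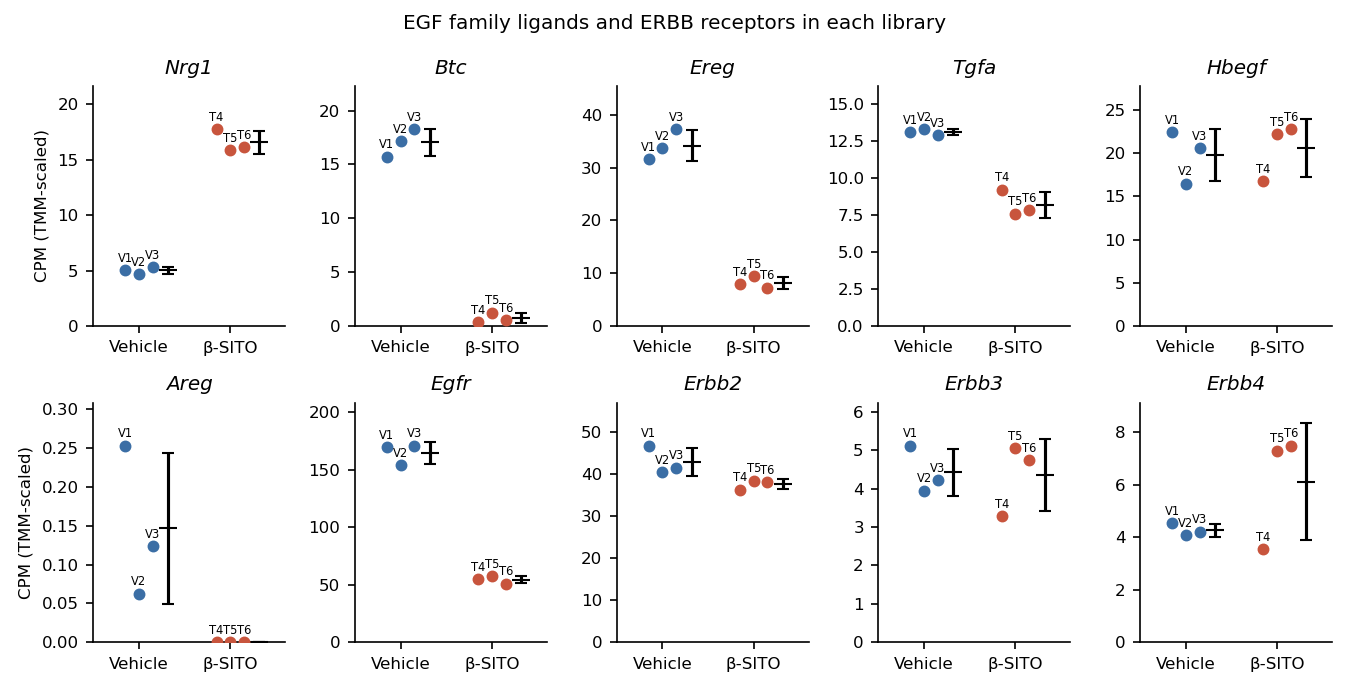
Expression of the 6 ligands and 4 receptors in every library, in CPM on linear axes that start at 0 and differ between panels. Each labelled point is a library, and the black line with its bar is the mean ± SD of 3 libraries. Nrg1 lay higher, and Btc, Ereg, Tgfa, Egfr and Erbb2 lay lower, in all 3 HO + β-SITO libraries. T4 lay below T5 and T6 for Btc, Hbegf, Erbb2, Erbb3 and Erbb4, and above them for Nrg1 and Tgfa.

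Promoter sequences from RefSeq (build GRCm38.p6) were found for 6 of the 10 members, and none for Nrg1, Ereg, Hbegf and Erbb3. Those of Btc and Egfr are shown because these were the DEGs among the 6. Each line gives the 250 bases before the annotated start, 5′ to 3′, with the searched motifs in capitals. The Btc stretch lies at chr5:91402995-91403244 on the minus strand, and the Egfr stretch at chr11:16751953-16752202 on the plus strand.
Btc: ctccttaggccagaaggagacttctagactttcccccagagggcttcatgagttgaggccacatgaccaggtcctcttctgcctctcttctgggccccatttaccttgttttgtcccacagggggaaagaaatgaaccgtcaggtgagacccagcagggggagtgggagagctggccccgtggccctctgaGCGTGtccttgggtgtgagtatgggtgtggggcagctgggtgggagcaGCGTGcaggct
Egfr: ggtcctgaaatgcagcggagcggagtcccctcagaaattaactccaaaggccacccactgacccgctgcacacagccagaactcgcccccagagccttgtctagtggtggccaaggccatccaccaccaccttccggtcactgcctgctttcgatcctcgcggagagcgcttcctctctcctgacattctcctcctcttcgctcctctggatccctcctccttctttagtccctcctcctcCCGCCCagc

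The motifs searched on both strands were AP-1 (TGANTCA), κB, the interferon response element, the GC box (GGGCGG), the core of the hypoxia response element (ACGTG or GCGTG) and the TATA box (TATAAA). The Btc stretch held the hypoxia core at 2 places, with GCGTG starting 59 and 11 bases before the start, a core that 38.6% of 32851 RefSeq promoters of this length hold. The Egfr stretch held 1 GC box on the opposite strand, which 32.7% of promoters hold. No AP-1, κB or interferon motif was found in the stretches of the 6 members, against 6.75%, 7.25% and 2.98% of all promoters. Because few promoters hold these motifs, their absence from 6 stretches says little about the members. The Areg stretch, not shown, held a GC box and a TATA box, and that of Tgfa 2 GC boxes and 1 hypoxia core, and those of Erbb2 and Erbb4 none of the 6 motifs. A match describes the letters and not a site in use.

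Among the ligands, Btc differed most between the groups. It encodes betacellulin, a ligand of EGFR and ERBB4, and lies on chromosome 5 from 91505120 to 91550853 on the minus strand (GRCm39, as for all gene positions below). Btc had 15.7, 17.2 and 18.3 CPM in V1 to V3 and 0.359, 1.24 and 0.520 CPM in T4 to T6. The HO + Vehicle libraries held 249 to 295 counts, and T4, T5 and T6 held 7, 22 and 10. The mean fell from 17.0 ± 1.28 to 0.705 ± 0.466 CPM (± SD, n = 3), and the log2 fold change was -4.61 (SE 0.23, adjusted p = 6.44e-11 with edgeR), or 24.4-fold. The size of this decrease rests on few counts and lay between -5.23 and -4.29 over 13 alternative analyses.

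Ereg encodes epiregulin, an inducible ligand of EGFR and ERBB4, and lies on the same chromosome from 91222481 to 91241505 on the plus strand. It had 31.6, 33.7 and 37.3 CPM in V1 to V3 and 7.85, 9.49 and 7.28 CPM in T4 to T6, so the lowest HO + Vehicle library was above every HO + β-SITO library. The means were 34.2 ± 2.86 and 8.21 ± 1.15 CPM (± SD, n = 3), and the log2 fold change was -2.06 (SE 0.11, adjusted p = 1.08e-10 with edgeR), or 4.17-fold. An antisense gene that overlaps its first bases, Gm19610, held 3 to 14 counts per library.

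Areg, which encodes amphiregulin, a ligand of EGFR, lies between them, from 91287458 to 91296291 on the plus strand. It held 4, 1 and 2 counts in V1 to V3 and none in T4 to T6. A library of the HO + β-SITO group with no count can still hold up to 0.154 to 0.168 CPM (3 counts, counting error only), which overlaps the HO + Vehicle values of 0.0626 to 0.252 CPM. No fold change is given at these counts. Areg was not tested with the filter on low counts. Without it, where 26597 genes were tested, Areg was a DEG with lower expression under β-SITO (adjusted p = 0.0292 with edgeR), which rests on 7 counts in all.

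Nrg1 was the only DEG among the 10 that was higher in the HO + β-SITO group. It encodes neuregulin-1, the ligand of ERBB3 and ERBB4, and lies on chromosome 8 from 32304579 to 33374825 on the minus strand. It had 5.05, 4.70 and 5.32 CPM in V1 to V3 and 17.8, 15.9 and 16.1 CPM in T4 to T6, with no overlap. The means were 5.02 ± 0.315 and 16.6 ± 1.02 CPM (± SD, n = 3), and the log2 fold change was 1.72 (SE 0.11, adjusted p = 1.75e-09 with edgeR), or 3.30-fold. A second entry of the table with the name Nrg1, a short stretch from 32408601 to 32408786, held no count in any library. The gene has 18 annotated transcripts, which these counts do not separate. All 10 endothelial markers were DEGs with higher expression under β-SITO, and their summed level was 227.1 to 261.4 CPM against 896 to 938.7 CPM, with none at 0. The 8 smooth muscle markers rose as well, from a summed 665 to 730.2 CPM to 1350 to 1563 CPM. The part of endothelial or smooth muscle RNA in the Nrg1 difference was not tested.

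Tgfa encodes TGF-α, a ligand of EGFR, on chromosome 6 from 86172205 to 86252701 on the plus strand. It had 13.1, 13.3 and 12.9 CPM in V1 to V3 and 9.19, 7.58 and 7.80 CPM in T4 to T6, without overlap. Its mean fell from 13.1 ± 0.199 to 8.19 ± 0.872 CPM (± SD, n = 3), and the log2 fold change was -0.67 (SE 0.11, adjusted p = 5.42e-05 with edgeR) that did not reach 2-fold. Hbegf encodes HB-EGF, a ligand of EGFR and ERBB4 that binds heparan sulfate, on chromosome 18 from 36637980 to 36648858 on the minus strand. It had 22.4, 16.5 and 20.6 CPM in V1 to V3 and 16.7, 22.2 and 22.8 CPM in T4 to T6. The lowest values of the groups, V2 and T4, were close to each other, and the groups overlapped. The log2 fold change of Hbegf was 0.05, with a 95% interval from -0.22 to 0.32 (adjusted p = 0.724 with edgeR), and its sign changed when V2 or T6 was left out.

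Among the receptors, Egfr held most of the counts and was the only DEG. It lies on chromosome 11 from 16702203 to 16868158 on the plus strand. It had 169.9, 154 and 171 CPM in V1 to V3 and 54.9, 57.3 and 51.1 CPM in T4 to T6, so the groups were far apart. The means were 165 ± 9.60 and 54.4 ± 3.13 CPM (± SD, n = 3), and the log2 fold change was -1.60 (SE 0.07, adjusted p = 8.31e-12 with edgeR), or 3.03-fold. Over the 13 alternatives the log2 fold change of Egfr lay between -1.64 and -1.45. The 10 fibroblast markers, whose summed level was higher in the HO + β-SITO group as given above, held 7 genes that rose, 2 that fell and no DEG. Of 9 epicardial and mesothelial markers 6 rose, 2 fell and 1 did not pass. The summed level was 931 to 964 CPM in V1 to V3 and 211 to 242 CPM in T4 to T6, which reflects Aldh1a2 (841 ± 13.8 and 84.8 ± 6.49 CPM; SD, n = 3), while the median log2 fold change of the list was 0.60. The part of epicardial or mesothelial RNA in the Egfr values was not tested. The antisense gene Egfros, inside the Egfr locus, held 1 to 5 counts per library.

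Erbb2 lies on chromosome 11 from 98303296 to 98328542 on the plus strand and encodes the shared partner receptor. It had 46.7, 40.4 and 41.5 CPM in V1 to V3 and 36.2, 38.4 and 38.0 CPM in T4 to T6. The groups did not overlap, but the gap between V2 and T5 was smaller than the spread among the HO + Vehicle libraries. The means were 42.9 ± 3.37 and 37.5 ± 1.15 CPM (± SD, n = 3), and the log2 fold change was -0.19 with a 95% interval from -0.35 to -0.03 (adjusted p = 0.0315 with edgeR). This call was lost under 9 of the 13 alternatives, among them DESeq2 (adjusted p = 0.0705) and library size only, where the log2 fold change was -0.04 (adjusted p = 0.622). Leaving out V1, the highest library, gave -0.10 (adjusted p = 0.233). It was also lost with V3, T4, T5 or T6 left out (adjusted p = 0.0656 to 0.0931). The gene overlaps Mien1 on the opposite strand, which held 120 to 156 counts per library.

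Erbb3, on chromosome 10 from 128403392 to 128425521 on the minus strand, had 5.11, 3.95 and 4.21 CPM in V1 to V3 and 3.29, 5.05 and 4.73 CPM in T4 to T6. Its groups overlapped, and its log2 fold change was -0.02 with a 95% interval from -0.42 to 0.37 (adjusted p = 0.914 with edgeR). The sign turned to 0.12 with library size only. Schwann and neural crest cells are known for ERBB3, and 7 of their markers had a summed level of 3.96 to 4.26 CPM in the HO + Vehicle group and 7.59 to 8.37 CPM in T4 to T6. Only 3 of these 7 passed the filter, and their part in the Erbb3 level was not tested.

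Erbb4, the receptor of neuregulins in cardiomyocytes, lies on chromosome 1 from 68071345 to 69147218 on the minus strand. It had 4.54, 4.07 and 4.21 CPM in V1 to V3, while T4 had 3.54 and T5 and T6 had 7.30 and 7.49 CPM. T4 was thus below every HO + Vehicle library, and T5 and T6 were above them. The log2 fold change was 0.51 with a 95% interval from 0.02 to 1.003, and it did not pass (adjusted p = 0.0630 with edgeR). Without T4 it was 0.79 (adjusted p = 8.39e-05), and it also passed with library size only (0.66, adjusted p = 0.0195), with upper quartile normalization (0.65, adjusted p = 0.0208) and without the filter (adjusted p = 0.00436). The summed cardiomyocyte markers were likewise lower in T4 than in T5 and T6. Per 1000 CPM of these markers, Erbb4 had 0.617, 0.645 and 0.655 CPM in V1 to V3 and 0.662, 0.841 and 0.856 CPM in T4 to T6. Of the 12 markers, 4 rose, 2 of them as DEGs, 2 fell and 6 did not pass, so the ratio depends on the markers summed. Whether the cardiomyocyte content sets the Erbb4 level was not tested.

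**Figure D2:**
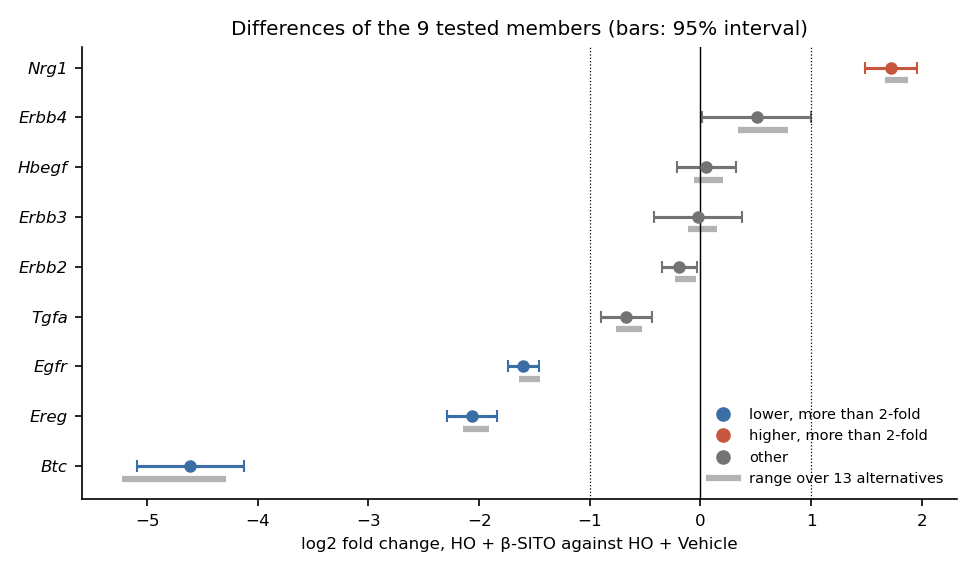
The log2 fold change of HO + β-SITO against HO + Vehicle for the 9 tested members, with 95% intervals, over the range of 13 alternative analyses in grey. Dotted lines mark a 2-fold change. Btc (-4.61), Ereg (-2.06) and Egfr (-1.60) lay below them, Nrg1 (1.72) above, and the other 5 between them, though the highest end of the Erbb4 interval reached 1.003.

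Levels of different genes were compared as TPM, which divides counts by the length of the exons of each gene. TPM carried no TMM adjustment, so differences between the groups can be unlike those in CPM. Mean Erbb2 was 42.9 and 37.5 CPM in HO + Vehicle and HO + β-SITO, but 26.9 and 27.2 TPM. Mean Erbb3 was 4.42 and 4.36 CPM, but 2.40 and 2.73 TPM. Changes between the groups are therefore read from CPM. In the HO + Vehicle group the order of mean TPM was Egfr (47.6), Ereg (27.0), Erbb2 (26.9), Hbegf (13.4), Btc (12.3), Tgfa (6.58), Erbb3 (2.40), Nrg1 (1.59), Erbb4 (1.13) and Areg (0.396). Ereg and Erbb2 overlapped in their libraries, as did Hbegf and Btc, and the other neighbours in this order did not. The orders in both groups were taken with all exons of a gene as its length. The longest transcript is much shorter for Nrg1 (5415 against 10351 bases), Hbegf (2890 against 4834) and Tgfa (4527 against 6490), but not for Ereg and Erbb3. With the longest transcript Nrg1 would pass Erbb3 in the HO + Vehicle group and Ereg in the HO + β-SITO group. The ranks therefore depend on the length used. In the HO + β-SITO group the order of TPM was Erbb2 (27.2), Egfr (18.1), Hbegf (16.1), Ereg (7.50), Nrg1 (6.05), Tgfa (4.76), Erbb3 (2.73), Erbb4 (1.86), Btc (0.588) and Areg at 0. Egfr and Hbegf overlapped there, as did Erbb3 and Erbb4. Egfr stood above Erbb2 in every HO + Vehicle library and below it in every HO + β-SITO library.

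The make-up of the receptors was compared as the share of each in their summed TPM. Egfr took 59.6%, 60.8% and 62.6% in V1 to V3 and 38.3%, 36.5% and 34.2% in T4 to T6. Erbb2 took 34.5% ± 1.29 in the HO + Vehicle group and 54.5% ± 1.15 under β-SITO (± SD, n = 3). The neuregulin receptors were small parts throughout, with Erbb3 at 3.07% ± 0.261 and 5.45% ± 0.975 and Erbb4 at 1.45% ± 0.0320 and 3.71% ± 1.26 (SD, n = 3). The groups did not overlap for any of the 4 shares (exact permutation test, two-sided, p = 0.1 each, the smallest that 3 libraries against 3 allow). The difference in the Erbb4 share was 2.26 percentage points, and 3.94 with counts not divided by gene length. Shares of a whole are tied to each other. The summed TPM of the receptors, without TMM adjustment, was itself 1.56-fold higher in the HO + Vehicle group (78.0 ± 6.17 against 49.9 ± 2.27, SD, n = 3).

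Among the ligands, the shares of Ereg and Btc were lower, and those of Hbegf and Nrg1 higher, in every HO + β-SITO library. Ereg took 44.1% ± 2.31 of the summed ligand TPM in the HO + Vehicle group and 21.4% ± 2.30 in the HO + β-SITO group, and Btc 20.1% ± 1.20 and 1.64% ± 0.987 (SD, n = 3). Hbegf took 25.1%, 19.0% and 21.3% in V1 to V3 and 40.4%, 46.6% and 50.4% in T4 to T6, although its CPM did not pass the test. Nrg1 took 2.58% ± 0.0535 and 17.4% ± 2.32 (SD, n = 3). Tgfa took 10.8% ± 0.738 and 13.7% ± 2.46 (SD, n = 3), a difference of 2.97 percentage points that depended on the length used. It was 0.477 with counts not divided by gene length and 0.456 with the longest transcript (exact permutation test, p = 0.9 each), and 1.58 without T4. The exact permutation test gave p = 0.1 for each of the 6 ligand shares, the smallest possible. Without division by gene length, the difference in share went from 14.8 to 25.03 percentage points for Nrg1 and from 24.0 to 15.6 for Hbegf. The summed ligand TPM, also without TMM adjustment, was 61.3 ± 3.96 in the HO + Vehicle group and 34.9 ± 2.42 under β-SITO (± SD, n = 3).

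**Figure D3:**
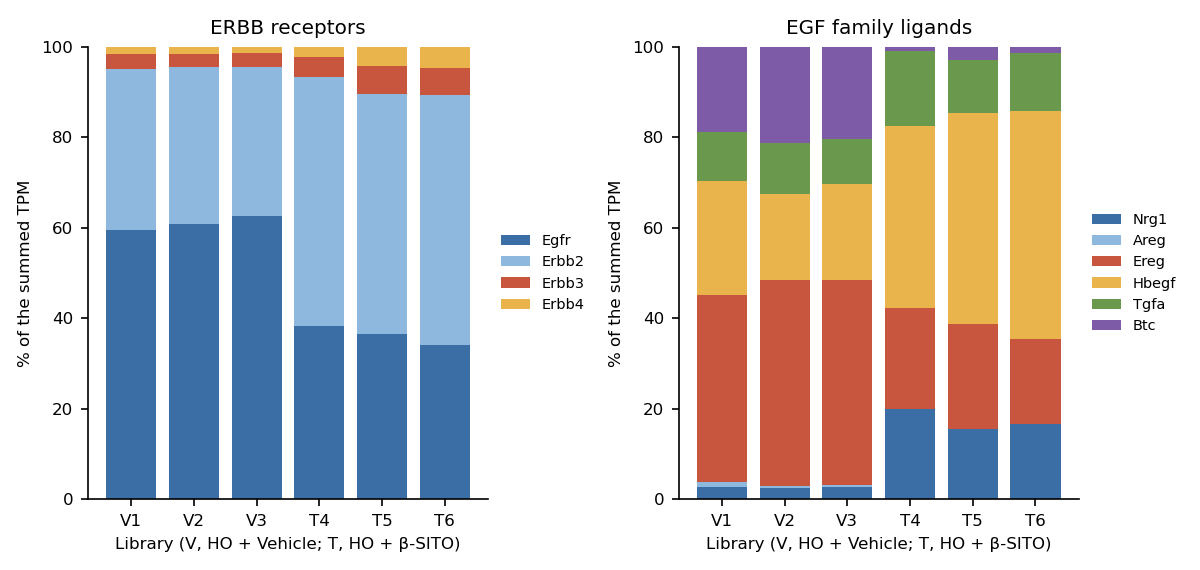
Share of each gene in the summed TPM of the 4 receptors (left) and of the 6 ligands (right), as stacked bars from 0 to 100% for each library. The Egfr share was 59.6% to 62.6% in V1 to V3 and 34.2% to 38.3% in T4 to T6, and the Btc share shrank from 20.1% to 1.64% on average.

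Epgn, Ereg, Areg and Btc lie next to each other on chromosome 5, within 375.5 kb. Epgn encodes epigen, another EGFR ligand, and held at most 1 count per library. Within 300 kb on either side of this stretch, a window chosen after the values were seen, 10 genes were tested. All 10 were DEGs, 8 of them lower and 2 higher under β-SITO. This count includes Ereg and Btc, around which the window was set. Of the 8 tested genes that are no members, 6 were lower and 2 higher DEGs. Of all tested genes, 22.8% were DEGs, 10.1% lower and 12.8% higher. The neighbours on one side are genes of CXC chemokines, which attract neutrophils. Cxcl5 had a log2 fold change of -6.57, Cxcl1 of -5.87 and Cxcl2 of -8.28, all larger decreases than those of Ereg and Btc, and Cxcl3 held 1277 to 1416 counts in V1 to V3 and only 1 to 3 counts in T4 to T6. Ppbp and Pf4, platelet chemokine genes among them, went the other way, with 2.27 and 1.14. Ppbp held only 2 to 4 counts in V1 to V3 and 13 to 18 counts in T4 to T6. The flanking genes Mthfd2l, a mitochondrial folate enzyme, and Parm1 had -1.07 and -1.08 (edgeR, adjusted p of 5.82e-07 and 6.55e-08). Neighbouring genes are not independent of each other, and their number is small.

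**Figure D4:**
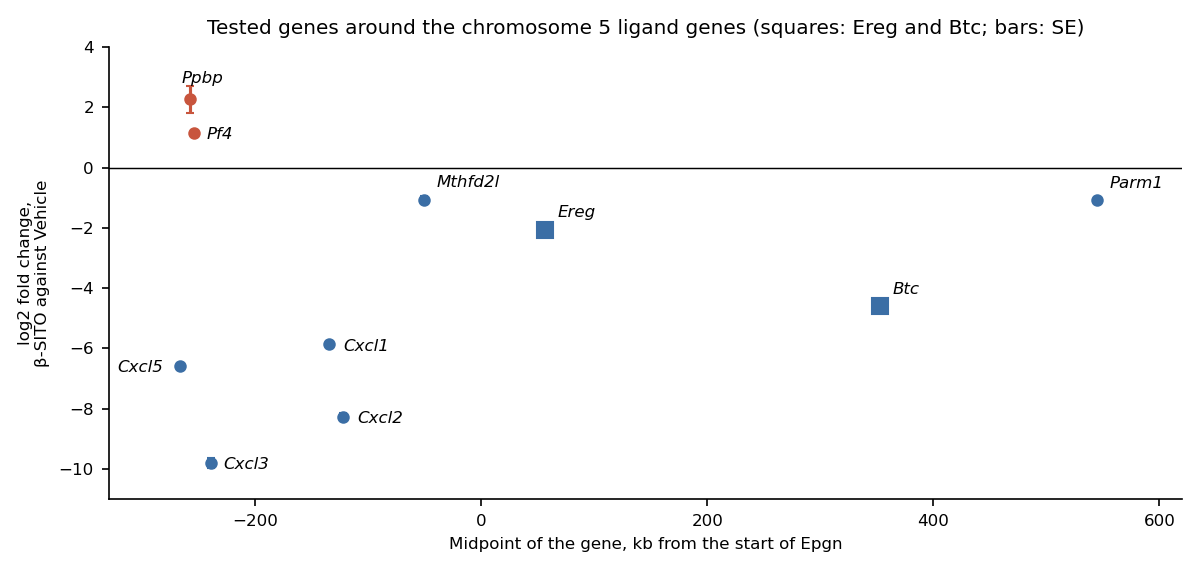
Fitted log2 fold changes of the 10 tested genes around the chromosome 5 ligand genes, against the distance of their midpoint from the start of Epgn in kb, with SE bars. Ereg (-2.06) and Btc (-4.61), drawn as squares, were lower. So were Cxcl1, Cxcl2, Cxcl3 (-9.80, on 1 to 3 counts per HO + β-SITO library), Cxcl5, Mthfd2l and Parm1 (-1.08). The chemokine genes Ppbp (2.27, on 2 to 4 counts per HO + Vehicle library) and Pf4 (1.14) were higher.

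The other ligands of the family had too few counts to be tested. Egf held 3 to 8 counts in V1 to V3 and 10 or 11 counts in T4 to T6, Nrg2 held 1 to 8 and Nrg4 2 to 8 counts over all libraries, and Nrg3 held none. Without the filter, the adjusted p was 0.168 for Egf, 0.162 for Nrg2, 0.442 for Nrg4 and 0.944 for Epgn (edgeR). Egf passed the filter when V1 was left out and then had a log2 fold change of 1.59 (adjusted p = 0.0204), but with V2, V3 or T4 left out it did not pass the test (adjusted p = 0.0983 to 0.245).

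Genes that release the ligands went both ways. Of 13 tested, 7 fell and 4 rose at an adjusted p under 0.05, of which 2 were lower and 2 higher DEGs. The median log2 fold change was -0.21. Of all tested genes, 66.8% passed at this level and 22.8% were DEGs, and the lists below stand beside the same shares. Adam17, the main protease for TGF-α, amphiregulin, HB-EGF and epiregulin, had 229.5, 225 and 244 CPM in V1 to V3 and 107, 100.3 and 97.6 CPM in T4 to T6, a log2 fold change of -1.20 (SE 0.06, adjusted p = 8.89e-11 with edgeR). Rhbdf2, which encodes the iRhom2 protein that carries ADAM17 to the cell surface, had a log2 fold change of -1.23 (adjusted p = 6.41e-10). Adam10, the protease for betacellulin, rose by a log2 fold change of 0.23 (adjusted p = 0.00236), so that a large decrease of Btc stood beside a small increase of its protease gene. Timp3, which encodes an inhibitor of ADAM17, rose from 126 ± 12.6 to 769.7 ± 19.6 CPM (± SD, n = 3), and the log2 fold change was 2.61 (adjusted p = 7.73e-14). Adam8, a metalloprotease of myeloid cells, had 1.76 (adjusted p = 4.31e-12). The summed level of 10 macrophage markers was 1215 to 1332 CPM in the HO + Vehicle group and 2651 to 3251 CPM in T4 to T6, with 7 DEGs higher, 1 lower and none at 0. The part of macrophage RNA in the Adam8, Ereg and Hbegf values was not tested.

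Inside the cell, 26 genes of adaptors and of the kinase cascades were tested. At an adjusted p under 0.05, 10 fell, 10 rose and 6 did not pass. The median log2 fold change was 0.05, and 4 genes were DEGs. Map2k1, which encodes the ERK kinase MEK1, fell from 260.2 ± 9.38 to 83.0 ± 0.886 CPM (± SD, n = 3), and the log2 fold change was -1.65 (adjusted p = 8.60e-13 with edgeR), and Src, a kinase that also phosphorylates EGFR, had -1.18 (adjusted p = 1.50e-10). Plcg1, a phospholipase recruited by active receptors, had 1.08 (adjusted p = 7.08e-10), and Gab1, a docking protein downstream of EGFR, had 1.05 (adjusted p = 3.85e-09). With V2 left out, Gab1 had 0.99 and was no longer a DEG.

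Of 20 tested genes of receptor and ERK feedback inhibitors, 7 fell, 8 rose and 5 did not pass, with a median log2 fold change of 0.14. Spry1, a Sprouty inhibitor of receptor tyrosine kinase signalling, had 32.1, 32.6 and 28.0 CPM in V1 to V3 and 144, 147 and 145 CPM in T4 to T6, a log2 fold change of 2.23 (SE 0.07, adjusted p = 1.73e-13 with edgeR). The related inhibitors Spred1 (-1.41, adjusted p = 1.83e-11) and Spred3 (-1.20, adjusted p = 2.51e-07) fell. Lrig3, a transmembrane regulator of receptor levels, rose by a log2 fold change of 0.99 (adjusted p = 2.04e-04). It lay just under the 2-fold threshold and crossed it, to at most 1.15, with limma-voom, library size only, upper quartile normalization, or V1, V2 or T5 left out.

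The 14 genes inducible by ERK split into 5 that fell, 7 that rose and 2 that did not pass. Their median log2 fold change was 0.21, and 6 were DEGs. Egr3, an immediate early transcription factor, had 0.376 ± 0.169 and 4.76 ± 0.667 CPM (± SD, n = 3), and the log2 fold change was 3.64 (SE 0.29, adjusted p = 2.00e-08 with edgeR), on 4 to 9 counts in V1 to V3. Fos, a subunit of AP-1, had 1.51 (adjusted p = 5.51e-08), and Emp1, an epithelial membrane protein, had 2.003 (adjusted p = 1.59e-13). Ier3, an early response gene that is also a target of NF-κB, had 163.9 ± 9.08 and 39.4 ± 4.43 CPM (± SD, n = 3), and the log2 fold change was -2.06 (adjusted p = 3.24e-12). Fosl1 was the other DEG lower, on 19 to 31 counts in V1 to V3 and 3 to 9 in T4 to T6. With a filter at a mean of at least 1 CPM, only 1 lower DEG was left in the list. Over the 73 tested genes of all these lists, 8 were lower DEGs and 9 higher DEGs. Of all tested genes, 10.1% were lower and 12.8% higher DEGs, so DEGs were about as frequent in the lists as elsewhere. At an adjusted p under 0.05, 29 of the 73 fell, 29 rose and 15 did not pass, while 66.8% of all tested genes passed. The median log2 fold change of the lists was 0.00 against -0.01 over all genes. These counts measure transcripts, and phosphorylation of the receptors or of ERK was not measured in these libraries.

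**Figure D5:**
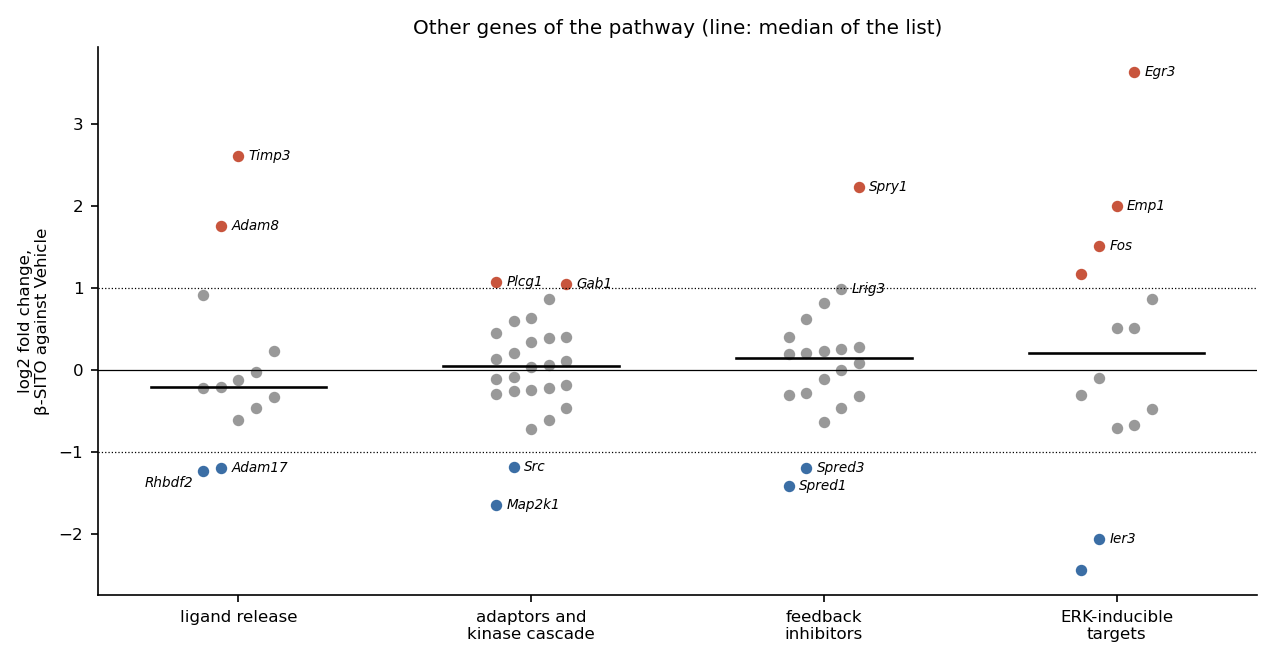
Log2 fold changes of HO + β-SITO against HO + Vehicle for tested genes of ligand release (13), adaptors and kinases (26), feedback inhibitors (20) and ERK-inducible targets (14). Each point is a gene, blue where lower and red where higher by more than 2-fold, and black lines mark the medians of -0.21, 0.05, 0.14 and 0.21, so that each list held genes on both sides of 0.

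For each of the 4 DEGs among the members, the genes with the most similar pattern were found as those with the smallest root mean square difference of log2 CPM, centred on the mean of each gene, over the 6 libraries. The groups set most of this pattern, so that it describes the size of the difference between them. Nearest to Nrg1 were Lyve1, a hyaluronan receptor, and Stim1, a calcium sensor of the endoplasmic reticulum, at 0.04 each. Among the genes nearest to Egfr was Ero1a, an oxidase of the endoplasmic reticulum, at 0.04. For Ereg they were Ncoa7 (0.08) and Erap1 (0.09), and for Btc Glp2r and Cst7 (0.21 each), which held 3.06 and 3.46 CPM in the HO + Vehicle group.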

How the data were processed

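RNA of NMCMs under hypoxia was sequenced as paired-end reads in 6 libraries, 3 per group by their titles. The authors deposited 1 table of raw counts per gene, and the processing notes of the submitters name HISAT2, featureCounts and GRCm39. Versions, strand setting and annotation release are not given in the sources used here. Without a strand setting, reads of overlapping antisense genes cannot be told apart. The library kit is named differently in the labels and in the methods. The names of the HO + β-SITO libraries alone end in C, so a separate preparation cannot be told apart from the treatment. Members and lists were chosen with earlier results of these data known.

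From the deposited counts, edgeR 4.0.16 (R 4.3.3, limma 3.58.1) gave TMM-scaled CPM and quasi-likelihood tests after filterByExpr, with group as the only term and the 2-fold threshold of the methods. The SE is the log2 fold change divided by the square root of F, an approximation. The biological coefficient of variation was 6.52%. TPM used no TMM adjustment, and its exon lengths came from GENCODE vM21, found for 52081 of 57010 identifiers. Exact permutation tests used scipy 1.17.1. Named genes were the members and, in each list, the 4 with the largest change among those with an adjusted p under 0.05 and a mean of at least 1 CPM. Fosl1, Adam10 and the chromosome 5 neighbours were picked after their values were seen. Nrdc of the release list is Nrd1 in the table, and Spry3 was not analysed here. A gene with a pattern like that of Egfr is not reported here. On simulated counts for 14560 genes with 200 changed, edgeR recovered 200 and made 1 false call. The simulation gave every gene the same dispersion, a fixed value above the common one of the data, and put large changes in well-expressed genes only. It therefore does not cover small differences, low counts or data in which many genes differ. Alternatives were DESeq2 1.42.0, limma-voom, other normalizations and filters, and leaving out each library.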

Additional observations from a re-analysis of the deposited data

How the results depend on the processing

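No paired analysis was possible because the groups share no replicate numbers. Btc, Ereg, Egfr and Nrg1 were DEGs in the same direction under all 13 alternatives, and the receptor and ligand shares kept their direction with counts not divided by gene length, with each library left out and with the longest transcript as length, an alternative chosen after seeing the data. The sizes of these differences moved by over 1.5 times for Tgfa, Nrg1, Erbb4 and Hbegf, as given above, and for Areg, from -0.641 percentage points to -0.164 with counts not divided by gene length and to -0.400 without V1. Without a fold-change threshold, 5007 genes were lower and 4885 higher, with 5 members lower, and 29 pathway genes were lower and 29 higher. With an adjusted p under 0.05, 2 members were higher, not 1, with upper quartile normalization, library size only or no filter on low counts, and 1 to 2 with each library left out, the second being Erbb4. These normalizations moved the median log2 fold change of all genes to 0.14, against -0.01 with TMM. Erbb3 turned to 0.12 with upper quartile normalization and with library size only, and ranged from -0.11 to 0.15 with each library left out. Hbegf ranged from -0.061 to 0.19 with each library left out. The cause of these sign changes was not tested. Without the filter, 4 members were DEGs lower, not 3, the fourth being Areg. Depth limited Areg, Egf, Epgn, Nrg2 and Nrg4, and the size of the Btc decrease. The exact tests of 3 libraries against 3 cannot go below 0.1.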
